A study of Mus musculus with 10 samples.

Results

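Zfp900 to Zfp999 are mouse zinc finger genes with late numbers in their naming series, and many of them arose by recent duplication in clusters. The members were all rows of the deposited count table whose Ensembl ID has, in the annotation of the mouse genome GRCm39, a symbol made of Zfp, the digit 9 and 2 further digits. These were 59 of the 29883 genes in the table, on 11 chromosomes. The annotation lists 69 genes of these names, and the other 10 (Zfp957, Zfp968, Zfp987, Zfp988, Zfp989, Zfp996, Zfp997, Zfp998, Zfp999 and a pseudogene that shares the symbol Zfp939) are not analysed here. The Zfp939 row analysed here is the long noncoding RNA of that name, and the other 58 members are protein-coding.

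The counts came from poly-A libraries of the nucleus accumbens (NAc), a part of the ventral striatum, in ethanol-naive male mice. There were 5 mice of the inbred strain C57BL/6J (B6) and 5 of the inbred strain DBA/2J (D2), each mouse sampled once at 9 weeks of age, with no treatment and no transgene. The study set these strains side by side for basal differences in transcripts of Nin, the gene of the centrosomal protein ninein, and the comparison of the zinc finger genes asks in which strain each of them was higher. GRCm39 is a B6 genome, and the reads of both strains were aligned to it.

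Zinc fingers of the C2H2 type are short folds held by a zinc ion between 2 cysteines and 2 histidines, and each finger reads a few DNA bases with 4 residues of its helix. Most members also carry a KRAB domain, which binds the corepressor TRIM28 and, through it, the histone methyltransferase SETDB1, so that the bound DNA is packed into silent chromatin. The main targets of KRAB zinc finger proteins are retroviral and other transposable elements, and the large clusters of these genes on mouse chromosomes 2 and 4 have been linked to the silencing of endogenous retroviruses in embryonic stem cells. For most members only this general plan is given here, since their own targets are not stated in the sources used.

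The bases that code for the DNA contacts are printed for single fingers of some members. For 6 of the called members, chosen from different loci and both directions, the first finger that is followed by the usual linker to the next finger is given as 84 bases of the GRCm39 coding strand, with the codons of helix positions -1, 2, 3 and 6 in capitals. These stretches lie at chr2:177166908-177166991 (+ strand, Zfp970), chr4:147840049-147840132 (- strand, Zfp984), chr4:145263811-145263894 (+ strand, Zfp990), chr9:88451323-88451406 (+ strand, Zfp949), chr17:21880716-21880799 (+ strand, Zfp983) and chr5:104962950-104963033 (- strand, Zfp951), each in a coding exon.
Zfp970: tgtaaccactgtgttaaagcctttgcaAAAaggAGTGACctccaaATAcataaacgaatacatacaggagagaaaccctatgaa
Zfp984: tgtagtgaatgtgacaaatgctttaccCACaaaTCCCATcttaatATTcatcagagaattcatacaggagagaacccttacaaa
Zfp990: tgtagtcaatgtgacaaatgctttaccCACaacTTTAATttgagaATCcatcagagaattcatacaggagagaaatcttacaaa
Zfp949: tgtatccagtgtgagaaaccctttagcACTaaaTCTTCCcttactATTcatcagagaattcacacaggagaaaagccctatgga
Zfp983: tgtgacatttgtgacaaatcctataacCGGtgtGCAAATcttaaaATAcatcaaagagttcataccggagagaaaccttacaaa
Zfp951: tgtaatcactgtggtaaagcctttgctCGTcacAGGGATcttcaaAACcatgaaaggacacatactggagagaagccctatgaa

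Zfp992 and Zfp991 on chromosome 4 are the closest pair among members that were both called, and their coding sequences of 1719 bases differ at 8 bases, which change 6 amino acids. None of the 8 lies in a contact codon (0 of 8). The 168 bases below, from chr4:146551340-146551507 (Zfp992) and chr4:147263684-147263851 (Zfp991), both on the + strand and in a coding exon, cover 2 fingers and hold 2 of the differences, in capitals. The longest stretch without any difference ran over 484 coding bases, so that a read of 100 bases within it has no base that assigns it to either gene. The sequenced reads were longer than 100 bases and paired, so that a read or its mate could still reach a differing base.
Zfp992: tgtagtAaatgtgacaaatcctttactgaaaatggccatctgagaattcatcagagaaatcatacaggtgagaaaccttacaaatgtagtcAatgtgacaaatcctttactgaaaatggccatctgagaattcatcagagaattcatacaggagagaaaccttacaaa
Zfp991: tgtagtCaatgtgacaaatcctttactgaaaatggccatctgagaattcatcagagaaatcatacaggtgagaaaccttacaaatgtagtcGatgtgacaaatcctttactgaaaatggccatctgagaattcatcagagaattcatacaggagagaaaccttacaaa

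The sequence features were read from the longest coding sequence of each of the 58 protein-coding members. They coded for 92 to 794 amino acids (median 485) and for 0 to 21 C2H2 fingers (median 11). A conserved core of the KRAB domain (aspartate and valine, then after 3 residues phenylalanine, serine or threonine, any residue, 2 glutamates and tryptophan) was found in 47 and not in 11. Zfp974 had the most fingers (21), followed by Zfp976 and Zfp945 (18 each), and Zfp972, whose annotated protein is the shortest, had 0.

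Depth lay between 96977262 and 111468080 counted reads per B6 library and between 104443243 and 116776714 per D2 library, a difference with p = 0.0635 in an exact permutation test (two-sided, with 0.00794 as the smallest p for 5 against 5 mice). B6 replicates 3 and 5 stood apart in the summed level of 7 marker genes of cortical projection neurons. It was 975 and 991.1 CPM (the counts-per-million value after TMM normalization), against 143 to 223 in the other B6 mice and 292 to 653 in D2. Among the 7, Slc17a7 spanned 57.2 to 791 CPM in B6 and Cux2 49.6 to 68.4 CPM. These mice also stood apart from the other B6 mice in summed oligodendrocyte markers (6202 and 6171 against 4293 to 5149 CPM). Further such sums were those of choroid plexus (18.4 and 19.5 against 37.4 to 38.9) and striatal markers (5015 and 4987 against 5594 to 6305). Endothelial and blood marker sums were highest in these mice among B6. The summed level of 10 marker genes of striatal projection neurons, among them Drd1 and Adora2a, was 4987 to 6305 in B6 and 4123 to 4983 in D2, and 7 of the 10 were lower in D2. Of the other lists, 4 of 6 oligodendrocyte markers, 3 of 6 astrocyte, 1 of 6 microglial, 1 of 4 choroid plexus and 2 of 4 blood markers were lower in D2, 1 astrocyte and 1 microglial marker were higher, and no marker of cortical neurons (0 of 7), endothelium (0 of 5), ependyma (0 of 4) or dividing cells (0 of 5) was called. In tissue of mixed cells, fewer cells of a type and less RNA per cell cannot be told apart, and the part of cell makeup in the results was not tested.

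The level used below is the CPM of each mouse, and the difference is the log2 fold change from B6 to D2 in edgeR's quasi-likelihood test, with Benjamini-Hochberg adjustment over all 29883 genes. A gene was called at an adjusted p under 0.05. Of the 59 members, 27 (45.8%) were called, where 18.3% of all genes were. D2 was higher in 16 of them (8.5% of all genes) and lower in 11 (9.83% of all genes). The CPM of the strains did not overlap in 24 members (40.7%), against 16% of all genes. Changes of over 1 on the log2 scale that were also called were found in 12 members (20.3%) and in 6.3% of all genes. The median log2 fold change was 0.07 over the members and 0.0036 over all genes. Without B6 replicates 3 and 5, a choice made after their marker levels were seen, 24 members were called, with Zfp937, Zfp986, Zfp991 and Zfp993 lost and Zfp944 gained, while 19.2% of all genes were called. With the level of the cortical markers as a covariate, 31 members and 26.4% of all genes were called, with Zfp931, Zfp952, Zfp956 and Zfp971 gained.

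The share called was close to the same at both ends of the range of levels, with 19 of 42 members at a mean of 1 CPM or more (23.8% of all genes at that level) and 8 of 17 members below (12.6% of all genes). Among the 306 genes named Zfp1 to Zfp899 in the table, the most similar group by name, 70 (22.9%) were called and 5 (1.63%) changed by over 1 on the log2 scale. This difference between the gene groups is a description and was not tested.

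**Figure D1:**
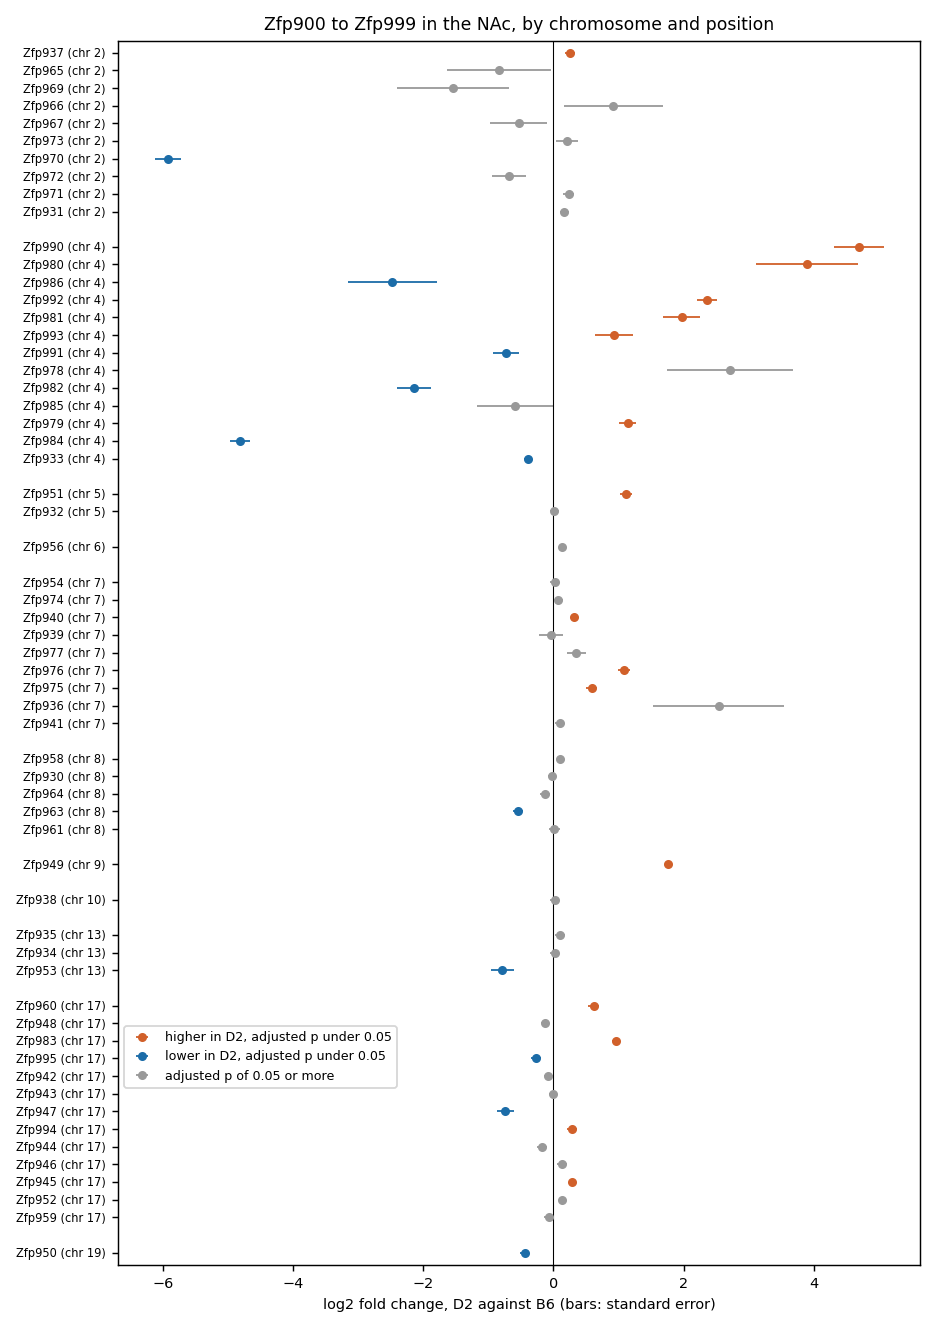
Log2 fold change of D2 against B6 (x axis) with its standard error for each of the 59 members, ordered by chromosome and position. Orange points are the 16 members higher in D2, blue points the 11 lower in D2 and grey points the 32 that were not called, and the chromosome 4 members span from -4.81 to 4.69.

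**Figure D2:**
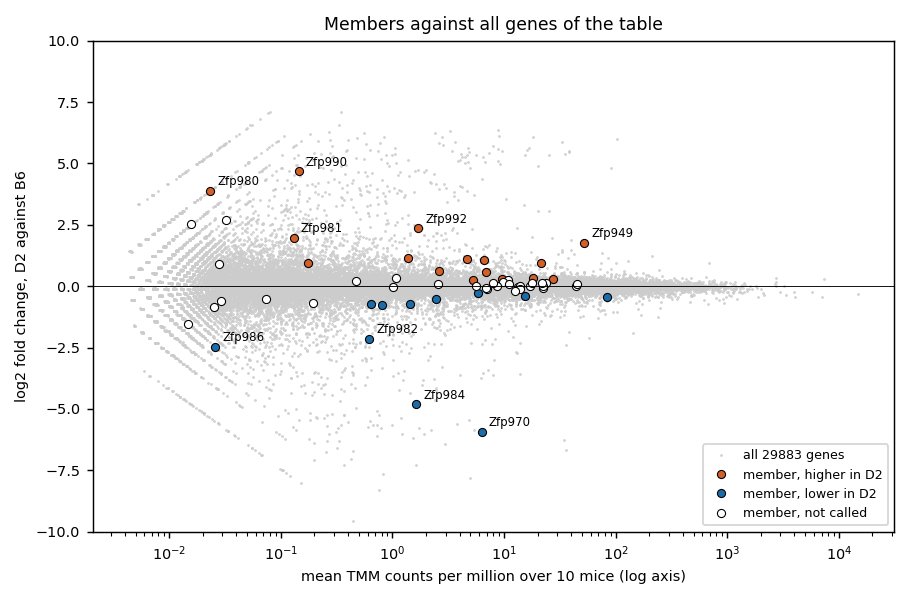
Mean level over 10 mice in CPM (log axis) against the log2 fold change from B6 to D2 for all 29883 genes (grey) and the members (orange higher in D2, blue lower, white not called). Zfp970 and Zfp984 are far below 0, at levels where most genes lie near 0. Zfp990 is far above 0, at a mean of 0.145 CPM, where genes spread more widely. The median absolute log2 fold change is 0.46 over all genes under 1 CPM and 0.099 over those at 1 CPM or more.

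By position, 5 clusters of 3 or more members with at most 2 Mb between neighbours held 39 of the 59 members. The cluster on chromosome 4 (chr4:145237287-147932882) had 13 members, of which 11 were called, 6 higher and 5 lower in D2. Of the 28 other genes of the table between its ends, 11 were called, 7 higher and 4 lower. The cluster on chromosome 2 (chr2:175311778-177720294) had 9 members with 1 called, and 5 of its 35 other genes were called. On chromosome 4 this was 84.6% of the members and 39.3% of the others, and on chromosome 2 11.1% and 14.3%. Of all genes, 18.3% were called. The clusters on chromosome 7 (chr7:42226953-42844955, 4 members), chromosome 8 (chr8:69661686-70202640, 3 members) and chromosome 17 (chr17:21787117-23086292, 10 members) had 2, 1 and 5 members called, and 2 of 3, 5 of 8 and 6 of 19 other genes.

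On chromosome 4, both directions were found side by side. Zfp984 (ENSMUSG00000078495, chr4:147838429-147894327, - strand) was the most reduced member of this cluster in D2. In B6 its level was 3.49, 2.55, 3.4, 3.02 and 3.39 CPM, and in D2 0.136, 0.0995, 0.114, 0.122 and 0.085 CPM. Every D2 mouse was far below every B6 mouse, with 9 to 16 counted reads per D2 library against 266 to 391 per B6 library. The log2 fold change was -4.81 (standard error 0.15, adjusted p = 4.9e-10, edgeR). Its closest relative in protein sequence, Zfp986 (88% identity), was also lower in D2, at 23 reads in all B6 libraries together and 4 in all D2 libraries, a ratio of 6.27 of B6 to D2 (95% exact interval 2.14 to 24.9, which covers counting error only). In edgeR's test Zfp986 had a log2 fold change of -2.47 and an adjusted p of 0.0238, which became 0.0588 without B6 replicate 4 and 0.0577 without B6 replicate 5. Of the 100-base exon stretches of Zfp984 and Zfp986, 35% and 72.1% occur again in GRCm39. The exons of Zfp984 also overlap those of Gm20707 on the same strand.

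Zfp990 (ENSMUSG00000078503, chr4:145237287-145269397, + strand), with 86.7% identity to Zfp984, went the opposite way. Its 5 B6 libraries held 5 reads in all and its 5 D2 libraries 157, and the level was 0.00893, 0, 0.0106, 0.0198 and 0.00952 CPM in B6 and 0.255, 0.335, 0.201, 0.296 and 0.312 CPM in D2. All D2 mice were thus above all B6 mice, and the ratio of D2 to B6 was 28.8 (95% exact interval 12.1 to 89.9). The edgeR fit gave a log2 fold change of 4.69 (standard error 0.39, adjusted p = 1.9e-06). Zfp980, a neighbour with 13 fingers, had 1 read in B6 (in replicate 1) and 25 in D2, a ratio of 22.9 with an interval of 3.75 to 941. It was higher in D2 with an adjusted p of 0.00335 (edgeR), and its 3 to 9 reads per D2 library mark the lowest level at which a member was called in this direction. The fitted log2 values of Zfp980, Zfp986 and Zfp990 depend on the small prior count that edgeR adds, so the ratios of reads are given beside them. Of the 100-base exon stretches of Zfp980, 65% occur again in GRCm39, against 4.7% of those of Zfp990.

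The near-identical genes Zfp992 (ENSMUSG00000070605, chr4:146533480-146554749, + strand) and Zfp991 (ENSMUSG00000067916, chr4:147209439-147268015, + strand), whose fingers are printed above, differed between the strains in opposite directions. Zfp992 was at 0.465, 0.622, 0.541, 0.733 and 0.41 CPM in B6 and at 2.86, 2.47, 2.72, 3.23 and 2.96 CPM in D2. All 5 D2 mice lay above all 5 B6 mice, and the log2 fold change was 2.36 (standard error 0.15, adjusted p = 1.7e-07, edgeR). Zfp991 was at 0.92, 0.498, 0.902, 0.832 and 0.895 CPM in B6 and at 0.442, 0.425, 0.446, 0.705 and 0.415 CPM in D2. Here the strains overlapped, with B6 replicate 2 below the rest of its strain and D2 replicate 4 above the rest of its own. The log2 fold change of Zfp991 was -0.73 (standard error 0.20, adjusted p = 0.0244, edgeR). This call was lost, with adjusted p from 0.0522 to 0.061, when B6 replicate 1, 3 or 5 or D2 replicate 1, 2, 3 or 5 was left out. Of all 100-base stretches in the exons of Zfp992 and Zfp991, 56.1% and 82.1% occur again in GRCm39, so that reads on them could be placed on another copy. The exons of Zfp991 also overlap those of Gm13162 on the same strand, over 72 bases.

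Zfp982, Zfp981, Zfp979 and Zfp993 were called as well. Zfp982 (ENSMUSG00000078496, chr4:147545583-147601280, + strand) was at 1.14, 0.862, 1.07, 1.04 and 0.924 CPM in B6 and at 0.246, 0.289, 0.131, 0.357 and 0.113 CPM in D2. The lowest B6 mouse was above the highest D2 mouse, with a log2 fold change of -2.14 (standard error 0.26, adjusted p = 6.3e-05, edgeR). Zfp981 (ENSMUSG00000056300, chr4:146559382-146623914, + strand) had low levels, 0.0447, 0.0575, 0.0318, 0.0693 and 0.0571 CPM in B6 and 0.144, 0.199, 0.184, 0.261 and 0.255 CPM in D2. It was higher in every D2 mouse than in any B6 mouse (log2 fold change 1.97, standard error 0.28, adjusted p = 2.5e-04, edgeR), and its exons overlap those of Gm13241 on the same strand.

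Zfp979 (ENSMUSG00000066000, chr4:147696389-147782960, - strand) was at 1.1, 0.833, 0.817, 0.881 and 0.695 CPM in B6 and at 1.82, 1.65, 1.87, 2.25 and 2 CPM in D2. These ranges did not overlap, and the log2 fold change was 1.15 (standard error 0.13, adjusted p = 4.2e-05, edgeR). Zfp993 (ENSMUSG00000063245, chr4:146695418-146742617, + strand), whose annotated protein has 2 fingers, was at 0.188, 0.0862, 0.138, 0.099 and 0.0857 CPM in B6 and at 0.178, 0.28, 0.306, 0.148 and 0.236 CPM in D2. The strains overlapped, with B6 replicate 1 above D2 replicates 1 and 4. Its log2 fold change was 0.93 (standard error 0.29, adjusted p = 0.0435, edgeR). The adjusted p was between 0.0627 and 0.111 in the 7 fits without B6 replicate 2, 3, 4 or 5 or D2 replicate 2, 3 or 5. Of the 100-base exon stretches of Zfp979 and Zfp993, 54.3% and 74.4% occur again in GRCm39.

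Zfp933, at the edge of the cluster, was by far its most abundant member and has no 100-base exon stretch that occurs again in the genome. It was at 17.5 ± 1.75 CPM (SD, n = 5) in B6 and 13.4 ± 0.614 CPM (SD, n = 5) in D2. The strains did not overlap, and the log2 fold change was -0.39 (adjusted p = 0.00104, edgeR). The 2 members of this cluster that were not called had few reads. Zfp978 had 4 reads in B6 and 32 in D2, a ratio of 7.34 (95% exact interval 2.6 to 28.6) with an adjusted p of 0.0748 (edgeR), which became 0.035 without B6 replicate 2 and 0.0195 without D2 replicate 1. Zfp985 had a log2 fold change of -0.59 (standard error 0.59) from 1 to 7 reads per library. Summed over the 13 members, the level was 22.2 to 26.8 CPM in B6 and 18.9 to 21 CPM in D2. Zfp933 and Zfp984 weigh most in the B6 sum, with means of 17.5 and 3.17 CPM in B6 and 13.4 and 0.111 CPM in D2. The sum therefore does not give the direction of the other members.

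**Figure D3:**
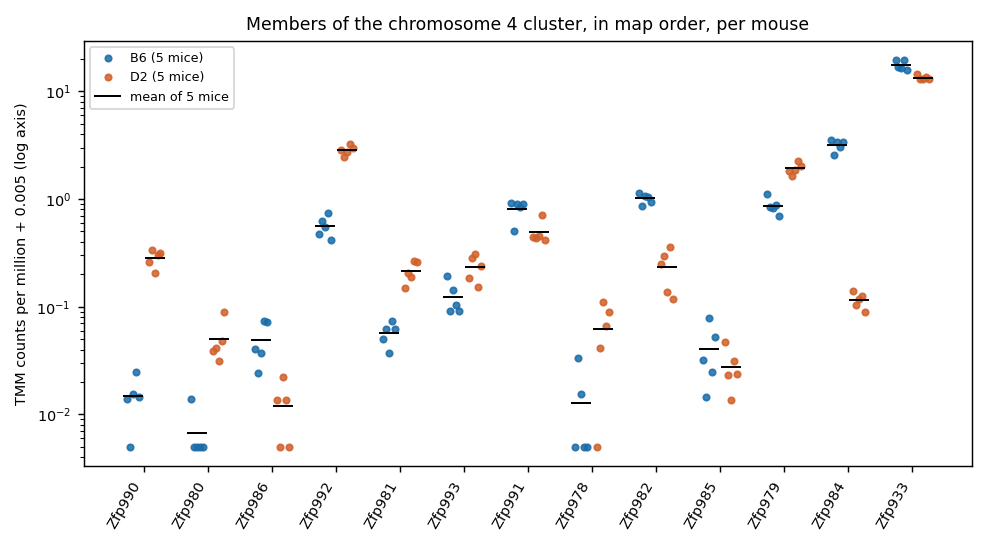
Level of the 13 chromosome 4 members in each mouse (CPM + 0.005, log axis), in map order, with B6 in blue, D2 in orange and the mean of 5 mice as a bar. Zfp984 drops from between 2.55 and 3.49 CPM in B6 to at most 0.136 in D2, while Zfp990 and Zfp992 are higher in every D2 mouse.

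On chromosome 2, 2 of 10 members were called (20%, against 18.3% of all genes). Zfp970 (ENSMUSG00000078866, chr2:177156498-177183583, + strand), which codes for a KRAB domain and 14 fingers, had the largest change of all members. Its level was 14.2, 10.6, 13, 12.1 and 11.9 CPM in B6 and 0.229, 0.335, 0.149, 0.104 and 0.198 CPM in D2. In reads, this was 1111 to 1595 per B6 library and 12 to 37 per D2 library, so that the D2 level was low but above 0 in every mouse. The log2 fold change was -5.92 (standard error 0.20, adjusted p = 8.7e-10, edgeR), a level 60.7-fold higher in B6. Of the 100-base exon stretches of Zfp970, 41.7% occur again in GRCm39. Summed over the 10 members, the level was 34.1 to 42.8 CPM in B6 and 27.4 to 31.7 CPM in D2. Zfp970 is part of this sum, with means of 12.4 CPM in B6 and 0.203 CPM in D2. The sum therefore does not give the direction of the other members.

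Zfp937, which lies outside the cluster, was at 4.83 ± 0.38 CPM in B6 and 5.76 ± 0.498 CPM in D2 (SD, n = 5 each). Its log2 fold change was 0.26 and its adjusted p 0.0395 (edgeR). The strains overlapped, and the adjusted p was 0.0508 to 0.101 in the 8 fits without B6 replicate 2, 3, 4 or 5 or D2 replicate 2, 3, 4 or 5.

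The other 8 chromosome 2 members were not called. Of these, Zfp965, Zfp966, Zfp967, Zfp969 and Zfp973 are uncertain, because at least 98% of their 100-base exon stretches occur more than once in GRCm39. The annotated proteins of Zfp965 and Zfp973 are identical, as are those of Zfp966, Zfp967 and Zfp969, and these 5 members held a mean of 1.6 to 51.6 reads per library. Zfp969 had 12 reads in B6 and 4 in D2 (ratio of B6 to D2 3.27, 95% exact interval 0.992 to 13.9). The 3 others had log2 fold changes of -0.68 (Zfp972), 0.24 (Zfp971) and 0.17 (Zfp931), with adjusted p between 0.0818 and 0.11 (edgeR). Single mice decided these calls too. Zfp971 had an adjusted p of 0.0176 without B6 replicate 1 and of 0.0462 without D2 replicate 5, Zfp931 one of 0.02 without B6 replicate 1, and Zfp972 one of 0.0414 without B6 replicate 3 and of 0.037 without D2 replicate 4.

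On chromosome 7, 3 of 9 members were called (33.3%, against 18.3% of all genes), all higher in D2. Zfp976 (ENSMUSG00000074158, chr7:42258950-42292012, - strand), with 18 fingers, was at 4.96, 3.5, 4.14, 4.99 and 3.84 CPM in B6 and 9.41, 9.35, 8.53, 9.2 and 8.88 CPM in D2. No B6 mouse reached a D2 mouse, and the log2 fold change was 1.08 (standard error 0.096, adjusted p = 3.8e-06, edgeR). Its neighbour Zfp975, with 89.7% identity, moved the same way, from 5.52 ± 0.679 to 8.31 ± 0.467 CPM (SD, n = 5 each; log2 fold change 0.59, adjusted p = 2.3e-04, edgeR). Zfp940, away from this cluster, had a log2 fold change of 0.32 (standard error 0.04, adjusted p = 9.1e-05, edgeR), with 16.1 ± 0.193 CPM in B6 and 20.1 ± 0.814 CPM in D2, and the strains did not overlap in Zfp940 or Zfp975.

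Zfp941, one of the 4 members with the highest CPM, was at 47.8, 49, 38.2, 42.2 and 39.1 CPM in B6 and at 42.6, 45.9, 47, 49.3 and 46.2 CPM in D2. The strains overlapped widely, and the log2 fold change of 0.10 (standard error 0.07) had an adjusted p of 0.42 (edgeR). Zfp954, Zfp974, Zfp977 and the noncoding Zfp939 were not called either, with log2 fold changes from -0.04 (Zfp939) to 0.35 (Zfp977). Zfp936 had 2 reads in B6 and 16 in D2, a ratio of 7.34 (95% exact interval 1.72 to 65.8), with an adjusted p of 0.11 (edgeR) that became 0.0494 without D2 replicate 5.

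On chromosome 17, 6 of 13 members were called (46.2%, against 18.3% of all genes), 4 higher and 2 lower in D2. The largest change there was that of Zfp983 (ENSMUSG00000035868, chr17:21869483-21885498, + strand), which codes for a KRAB domain and 10 fingers. It was at 16.7, 14, 13.4, 15.3 and 13.8 CPM in B6 and at 30.4, 27.5, 27.7, 29.2 and 27.3 CPM in D2. The strains were well apart (log2 fold change 0.96, standard error 0.062, adjusted p = 2.2e-07, edgeR). The exons of Zfp983 overlap those of ENSMUSG00000121815 on the same strand and those of Gm41541 and Gm53991 on the opposite strand. Zfp947 (ENSMUSG00000063383, chr17:22360666-22385174, - strand) went down, from 1.94, 1.84, 1.52, 1.83 and 1.78 CPM in B6 to 0.951, 1.14, 0.796, 1.11 and 1.35 CPM in D2. Its highest D2 mouse was below its lowest B6 mouse, and the log2 fold change was -0.74 (standard error 0.14, adjusted p = 0.00192, edgeR).

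Zfp995, with 90.4% identity to Zfp947, was also lower in D2 (6.36 ± 0.461 against 5.29 ± 0.404 CPM, SD, n = 5 each), with a log2 fold change of -0.26 and an adjusted p of 0.0237 (edgeR). Left out singly, B6 replicates 1, 3 and 4 and D2 replicates 1 and 2 ended this call, with adjusted p from 0.0505 to 0.0595. Zfp960, Zfp945 and Zfp994 were higher in D2, with log2 fold changes of 0.62, 0.29 and 0.28 and adjusted p of 2.6e-04, 0.00173 and 0.0197 (edgeR). Their strains did not overlap, and the adjusted p of Zfp994 was 0.0525 without D2 replicate 4. Of the exon stretches of Zfp960, 66.1% occur again in the genome. Zfp942, Zfp943, Zfp944, Zfp946, Zfp948, Zfp952 and Zfp959 were not called, with log2 fold changes from -0.18 (Zfp944) to 0.13 (Zfp952), and Zfp952 had an adjusted p of 0.0473 without B6 replicate 1. With the cortical marker covariate, Zfp952 had one of 0.00916 (edgeR).

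The remaining called members lay on chromosomes 5, 8, 9, 13 and 19. Zfp949 (ENSMUSG00000032425, chr9:88430073-88453709, + strand), the only member on chromosome 9, combined a large change with a high level. It was at 25.5, 23.5, 22.3, 25.5 and 22.1 CPM in B6 and at 77.8, 85, 78.5, 84.2 and 79 CPM in D2. The mice of each strain lay close together and the strains far apart, with a log2 fold change of 1.77 (standard error 0.051, adjusted p = 2.6e-10, edgeR). Its exons overlap 3 other annotated genes (Gm68674, Gm26461 and 9430037G07Rik), 2 of them on the opposite strand.

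Zfp951 on chromosome 5 (ENSMUSG00000072774, chr5:104960515-105008190, - strand) was at 3.1, 3.18, 2.65, 3.09 and 2.68 CPM in B6 and 6.31, 7.1, 6.41, 6.75 and 5.35 CPM in D2. Again every D2 mouse was higher (log2 fold change 1.12, standard error 0.089, adjusted p = 1.4e-06, edgeR). Zfp932 on the same chromosome, whose protein has been linked to the silencing of endogenous retroviruses in embryonic stem cells, was at 49.5, 39.1, 40.5, 47.8 and 41.7 CPM in B6 and 43.6, 45.5, 43.3, 46.7 and 42.1 CPM in D2. These values overlapped, and the log2 fold change was 0.02 (standard error 0.064, adjusted p = 0.9, edgeR).

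Zfp950 on chromosome 19 (ENSMUSG00000074733, chr19:61041343-61129278, - strand) had the highest CPM of all members. It was at 114, 86.1, 94.9, 100.1 and 91.4 CPM in B6 and 71.5, 74.5, 71.7, 75.7 and 65.8 CPM in D2. All D2 mice were below all B6 mice, and the log2 fold change was -0.44 (standard error 0.067, adjusted p = 4.4e-04, edgeR). Zfp953 on chromosome 13 (ENSMUSG00000098905, chr13:67487370-67508757, - strand) was at 0.974, 1.09, 0.891, 0.881 and 1.31 CPM in B6 and at 0.425, 0.497, 0.77, 0.705 and 0.595 CPM in D2. It too was lower in every D2 mouse, with a log2 fold change of -0.78 (standard error 0.18, adjusted p = 0.00797, edgeR). Zfp963 on chromosome 8 fell from 2.94 ± 0.152 to 2.02 ± 0.0626 CPM (SD, n = 5 each; log2 fold change -0.54, adjusted p = 1.4e-04, edgeR), and 5 of the 8 other genes within its cluster were lower in D2 as well. The exons of Zfp963 overlap those of Gm20422 on the same strand, and those of Zfp953 overlap Gm28044 and Gm28041.

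Those not called were Zfp930, Zfp958, Zfp961 and Zfp964 on chromosome 8, Zfp938 on chromosome 10, Zfp934 and Zfp935 on chromosome 13 and Zfp956 on chromosome 6. Their log2 fold changes lay between -0.13 (Zfp964) and 0.13 (Zfp956). Zfp956 had an adjusted p of 0.0596 (edgeR), which became 0.0342 without B6 replicate 4 and 0.0399 without D2 replicate 1. With all mice it was 0.0265 in DESeq2. In edgeR it was 0.0399 with total counts, 0.0481 with filterByExpr, 0.0472 with at least 10 counts in every library and 0.025 with the cortical marker covariate.

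**Figure D4:**
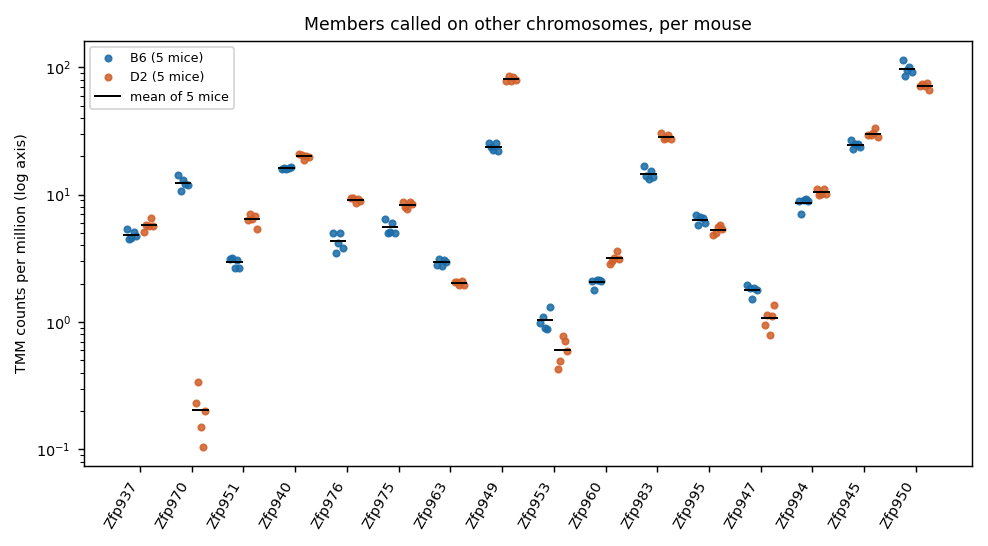
Level in each mouse (CPM, log axis) of the 16 called members on chromosomes other than 4, ordered by chromosome and position, with B6 in blue, D2 in orange and the mean of 5 mice as a bar. Zfp970 is at 10.6 CPM or more in B6 and at 0.335 or less in D2, and Zfp949 is between 77.8 and 85 CPM in D2 against at most 25.5 in B6.

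Related members did not always share a direction. Among the protein pairs with at least 85% identity there were 20, all with both genes on 1 chromosome. In 6 of these pairs both members were called. The directions were opposite in 3 (Zfp992 and Zfp991, Zfp990 and Zfp984, Zfp986 and Zfp993) and the same in 3 (Zfp995 and Zfp947, Zfp976 and Zfp975, Zfp986 and Zfp984). These pairs share members and neighbourhoods, so that they are not independent. These counts also rested on single mice. Without B6 replicate 3 or 5 or D2 replicate 2, 3 pairs had both members called and 1 of them was opposite, and without B6 replicate 4 it was 3 pairs with 2 opposite. Without D2 replicate 3, 1 of 4 such pairs was opposite, and without B6 replicate 2, 2 of 7. Zfp970 was called while 4 relatives with 86.5% to 91.8% identity (Zfp966, Zfp967, Zfp969 and Zfp971) were not. Of these, Zfp966, Zfp967 and Zfp969 held a mean of 3.1, 7.9 and 1.6 reads per library, with 100% of their 100-base exon stretches repeated. The lack of a call there says little, and Zfp971 was called in DESeq2 (adjusted p = 0.0438).

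How far the exon sequence of a member repeats elsewhere in the genome was set beside its level and its call. The median member had 7.87% of its 100-base exon stretches repeated. Below 10% repeated, 13 of 32 members (40.6%) were called, from 10% to 50% it was 7 of 14 (50%), and at 50% or more 7 of 13 (53.8%). Of all genes, 18.3% were called. The 11 members with no repeated stretch had a mean of 1.09 to 44.7 CPM. Levels between members were compared per kb of exon. On that scale Zfp941 (7.69 CPM per kb in B6 and 8.22 in D2), Zfp956 (7.18 and 7.84) and Zfp932 (7.15 and 7.23) were the highest over all mice and Zfp969 (0.00291 and 0.00094) was the lowest. In D2 alone, Zfp949 had 8.86 CPM per kb, against 2.6 in B6. An exon of another annotated gene, on either strand, overlapped 28 members, 12 of them called. The overlaps ranged from 7 bases in Zfp985 to 3208 in Zfp974. Whether reads there could be assigned depends on the handling of strand, which is not given in the sources used here.

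**Figure D5:**
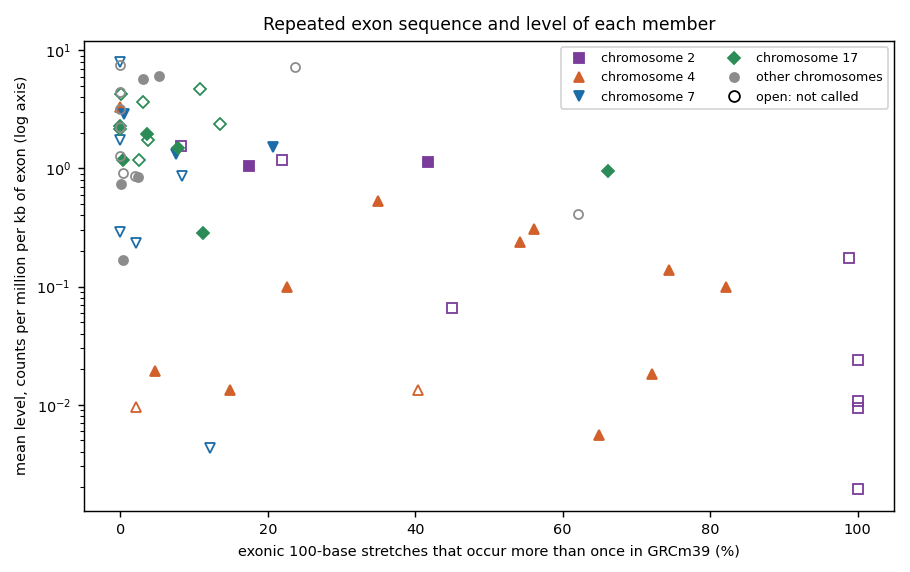
Percent of the 100-base exon stretches of each member that occur more than once in GRCm39 (x axis) against its mean level in CPM per kb of exon (log axis), with marker shape and colour for the chromosome and open symbols for members not called. The 5 chromosome 2 members at 98% or more sit at low levels and are all open.

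A list of 31 corepressor and heterochromatin genes was compared in the same fit. Of these, 2 (6.45%) were called, against 18.3% of all genes and 23.8% of genes at a mean of 1 CPM or more. The median level of the list was 66.5 CPM, and its log2 fold changes lay between -0.31 and 0.16. Trim28, the corepressor that binds the KRAB domain, was at 120.5 ± 4.64 CPM in B6 and 132.6 ± 1.93 CPM in D2 (SD, n = 5 each), a log2 fold change of 0.14 (adjusted p = 0.0095, edgeR). Hdac1, a histone deacetylase, was lower in D2 with a log2 fold change of -0.31 (adjusted p = 4.7e-04, edgeR). Setdb1, the histone methyltransferase of the complex, had a log2 fold change of 0.04 (standard error 0.043, adjusted p = 0.59, edgeR).

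Of 7 KRAB zinc finger genes with described targets outside the number range, 6 were in the table and 2 (33.3%) were called, against 18.3% of all genes. Zfp445, which protects imprinted genes, rose from 262.2 ± 13.3 CPM in B6 to 302.8 ± 14.2 CPM in D2 (SD, n = 5 each; log2 fold change 0.21, adjusted p = 0.0053, edgeR). Zfp819, which is mainly known from the testis, had 0 to 0.0715 CPM in B6 and 0.119 to 0.306 CPM in D2 (log2 fold change 2.39, adjusted p = 0.0027, edgeR). Zfp57, the other guardian of imprints, had a log2 fold change of 0.32 (adjusted p = 0.27, edgeR) and Zfp568, a repressor of a placental Igf2 promoter, one of 0.14 (adjusted p = 0.47, edgeR). Zfp809, which silences murine leukemia virus in stem cells, had a log2 fold change of 0.06 (adjusted p = 0.54, edgeR), and Zfp708, at 0 to 0.0297 CPM, one of -0.30 (adjusted p = 0.86, edgeR). Zfp600 is not analysed here.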

How the data were processed

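NAc RNA from male mice, 5 per strain, was made by the authors into 1 stranded poly-A library per mouse and sequenced in paired reads. After trimming with fastp, the authors aligned B6 and D2 reads alike to Ensembl GRCm39 (release 108) using STAR 2.7.10b, ran SAMtools 1.6 for sorting and assigned reads to genes using featureCounts. The authors deposited unnormalized read counts of 29883 genes and had taken out genes with a median of 0, so that the lowest median was 0.5. The handling of strand and of reads with several matches in featureCounts is not given in the sources used here. Depth was 96977262 to 116776714 counts per library. Groups were taken from the sample labels, which name each library a biological replicate.

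Symbols and exons were taken from GENCODE release M39, which held 29519 of the table's IDs and lacked 364. Counts were fitted with edgeR 4.0.16 (TMM, quasi-likelihood F test, two-sided, strain as the only factor) in R 4.3.3, and p-values were adjusted by the Benjamini-Hochberg method over all genes, with a threshold of 0.05. Standard errors were taken as the size of the log2 change over the root of the F statistic. The method was tested on simulated counts, with 200 genes of a mean of at least 10 counts changed by 1 on the log2 scale. There edgeR found 161 of the 200 and made 8 false calls. Members with fewer counts, such as Zfp980 and Zfp986 with means of 2.6 and 2.7, lie outside that setting. CPM used the TMM factors, and levels per kb the exon length of GENCODE. Ratios of low counts have exact binomial 95% intervals, which cover counting error only. Exon stretches of 100 bases were searched in GRCm39 on both strands. The sequenced reads were longer than this and paired, so that a repeated stretch does not make every read over it ambiguous. Fingers were matched as 2 cysteines separated by 2 residues, then 12 residues, then 2 histidines separated by 3 to 5 residues. Protein identity came from global alignments in Biopython 1.88 that covered at least 70% of the longer protein. Other steps used Python 3.11.15, numpy 2.4.6, scipy 1.17.1, pandas 2.3.3 and matplotlib 3.10.9.

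The members, the gene lists and the tests were chosen with earlier results of these data known. Every called member is named. Values per mouse are given for the 14 called members with the largest change among those with a mean of at least 0.1 CPM and for the 4 members with the highest mean CPM. Zfp991 was given per mouse as the partner of Zfp992, after its values were seen. Other members are given by chromosome. Of the corepressor list, Trim28, Setdb1 and the called genes are named. The alternatives were DESeq2 1.42.0 (the authors' tool), its size factors, total counts, upper-quartile factors, edgeR's filterByExpr, at least 10 counts in every library, the replicate number as a block, an adjusted p of 0.01, linker-bearing fingers only and each mouse left out in turn. The cortical marker level as a covariate and B6 replicates 3 and 5 left out were added after the marker levels were seen. The deviations of same-numbered mice from their strain means had correlations of -0.41 to 0.38 over 15241 genes, so that the numbers did not pair the mice.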

Additional observations from a re-analysis of the deposited data

Results flagged for a closer look

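In the 58 groups of 5 mice that belong to the 27 called members and to Zfp932 and Zfp941, 29 members in all, 5 single mice lay far from the other mice of their strain, by a gap of over 0.71 of the strain's whole range. For 5 independent values from a normal distribution, chance alone gives such a mouse in about 1 in 20 groups. That rate does not hold for groups near 0 reads, such as Zfp980 in B6, where a single read in 1 mouse fills the whole range.

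B6 replicate 2 accounted for 3 of them, each on the low side. In that mouse Zfp991 was at 0.498 CPM against 0.832 to 0.920 in the other B6 mice, Zfp960 at 1.78 CPM against 2.08 to 2.15, and Zfp994 at 7.04 CPM against 8.88 to 9.17. Zfp991 in D2 replicate 4 was at 0.705 CPM, against 0.415 to 0.446 in the other D2 mice. Zfp980 in B6 replicate 1 was at 0.00893 CPM, which is a single read, while the other B6 mice had 0 reads. The cause of these values was not tested.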

How the results depend on the processing

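The count of 27 called members was 29 with DESeq2 (20.8% of all genes called, against 18.3%), 27 with DESeq2's size factors or upper-quartile factors in edgeR (18.4% each), 28 with total counts (18.3%), 26 of 50 tested with filterByExpr (24.6%) and 22 of 46 tested with at least 10 counts in every library (23.7%). It was 21 at an adjusted p of 0.01, where 3415 of all genes (11.4%) were called in place of 5478, and 23 to 28 with 1 mouse left out (15.5% to 19%). No called member changed sign under these alternatives where it was tested, which was 25 of the 27 with filterByExpr, 21 with at least 10 counts and all 27 otherwise. DESeq2 lost no call and gained Zfp956 and Zfp971, and Zfp956 was also gained with total counts, filterByExpr and at least 10 counts. With the replicate number as a block, 24 (15.8% of all genes) were called, and Zfp937, Zfp986 and Zfp993 were lost. The correlations of same-numbered mice gave no pairing, so that this replicate block is only a check of the fit.

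The median log2 fold change over the members was 0.07. It was 0.10 with total counts, 0.041 with at least 10 counts in every library, 0.11 with the cortical marker level as a covariate, and 0.039 to 0.124 with 1 mouse left out. Total counts moved the median of all genes by 0.031 on the log2 scale, and the share of all called genes that were lower in D2 from 53.6% to 45.04%. Zfp932, which was not called, had log2 fold changes from -0.020 to 0.066 with 1 mouse left out and of -0.040 without B6 replicates 3 and 5, where Zfp941 was at -0.0056. The cause of these shifts was not tested. The median number of fingers was 7 in place of 11 when only fingers followed by the usual linker were counted.

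Depth limits the members with few reads: at 1 to 25 reads per strain, as for Zfp980 and Zfp986, a ratio is known only within a wide interval. Both strains were aligned to a B6 genome, D2 sequence was not analysed here, and the effect of either on the counts was not tested.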
